A study of Mus musculus and blank sample with 768 samples.

Results

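Endothelial cells of mouse lymph nodes (LN) that fell into a low GFP gate, GFPlow, were compared with endothelial cells of the GFP+ gate. Both gates were CD45- and CD31+, which leaves out most leukocytes and keeps vessel cells. The labels call GFP+ cells the Csf1r lineage and GFPlow cells a potential Csf1r lineage. GFP- endothelial cells of the same organ, which the labels call endothelial cells only, are given for reference. The labels give no strain, age, promoter or Cre driver behind the GFP for any gate, and no gate names an animal. GFPlow cells came from pools B, C and D, GFP+ and GFP- cells from pools A, B and C, so only pools B and C hold both gates. What a pool is (animals, a sort day or a library set) is not given in the labels. The series holds 768 wells. Lymph node GFPlow wells numbered 19, 32 and 72 in pools B, C and D, and GFP+ wells 48, 36 and 32 in pools A, B and C.

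Wells under 50000 gene reads, under 1000 detected genes or over 25% mitochondrial reads were left out. This left 79 GFPlow cells (15 of pool B, 14 of pool C and 50 of pool D) and 98 GFP+ cells (43 of pool A, 33 of pool B and 22 of pool C). The filter kept 64.2% of GFPlow wells and 84.5% of GFP+ wells. In pool C it kept 14 of 32 GFPlow wells and 22 of 32 GFP+ wells. The kept wells nearest to the limits had 65814 reads, 1105 genes and 22.1% mitochondrial reads, and the wells nearest to them outside had 47312 reads, 944 genes and 25.6%. Of the GFPlow wells left out, 30 were under the limit on reads, 42 under that on genes and 11 over the mitochondrial limit. The GFP+ wells left out numbered 11, 18 and 5 by the same limits. The median depth was 1238819 reads in GFPlow cells and 941920.5 in GFP+ cells, with medians of 2493 and 2757.5 genes. GFPlow cells of pools B, C and D had medians of 920846, 804578.5 and 1681865.5 reads, and GFP+ cells of pools A, B and C had 1057403, 778349 and 1330060. No cells among those kept held identical values.

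Without animals to compare, a gate is 1 sample. No p-value is given, and no difference below was set against a spread between animals. The values of single pools are printed instead. Levels are counts per 1000000 reads (CPM), taken on the summed reads of a gate or pool. Intervals in brackets are 95% limits, Poisson limits on reads for CPM and binomial limits over cells for shares of cells. Those on CPM take each read as independent, although amplified copies of a molecule are counted as separate reads, so they are too narrow for transcripts. No interval covers a spread between pools or animals. Ratios are log2 of GFPlow over GFP+ after adding 1 CPM to each, so they understate the distance of low genes.

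Lymphatic endothelium lines the sinuses of a lymph node, and its cells differ by place. Cells of the floor of the subcapsular sinus face the cortex and are known for the adhesion molecule MAdCAM-1, encoded by Madcam1. Cells of the ceiling carry the chemokine-scavenging receptor ACKR4, and cells of cortical and medullary sinuses carry scavenger receptors such as stabilin-2 and MARCO. Prox1 encodes the transcription factor that sets lymphatic identity, and Cdh5 encodes the junction protein VE-cadherin of all endothelium. Igfbp7 encodes a secreted protein of vessel walls that binds insulin-like growth factors.

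Madcam1 and Stab2, the stabilin-2 gene, are described together in several of the results below, so their promoters are shown (RefSeq, GRCm38.p6, 250 bases before to 50 after the start). Capitals mark AGGAAG, a core that ETS factors bind, searched on both strands (CTTCCT where it lies on the other strand). The Madcam1 window, chr10:79664309-79664608 on the plus strand, and the Stab2 window, chr10:87007893-87008192 on the minus strand, hold 1 match each, and that of Igfbp7, chr5:77407996-77408295 on the minus strand, holds 0. AACAAT, a core of SOX factors, and AGATAA, a core of GATA factors, have 0 matches in all 3 windows.
Madcam1: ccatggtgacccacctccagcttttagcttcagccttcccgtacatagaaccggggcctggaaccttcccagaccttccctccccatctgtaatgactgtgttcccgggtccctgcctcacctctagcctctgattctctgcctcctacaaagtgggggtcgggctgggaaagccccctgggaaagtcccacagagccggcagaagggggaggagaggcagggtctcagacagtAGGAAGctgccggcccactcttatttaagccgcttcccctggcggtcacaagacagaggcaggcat
Stab2: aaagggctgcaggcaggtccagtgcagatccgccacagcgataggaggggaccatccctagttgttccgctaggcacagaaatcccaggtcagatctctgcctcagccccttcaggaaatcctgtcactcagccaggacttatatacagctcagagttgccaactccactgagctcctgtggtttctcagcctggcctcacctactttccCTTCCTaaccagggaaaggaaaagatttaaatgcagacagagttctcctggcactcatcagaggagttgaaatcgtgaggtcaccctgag
Of 32851 promoters of that length, 35.4% hold AGGAAG on either strand, 10.7% AACAAT and 11.2% AGATAA. The letters describe these windows and are not evidence of binding.

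By level, Madcam1 and Igfbp7 placed GFPlow cells between the GFP+ and the GFP- cells. Madcam1 (chromosome 10, 79664559 to 79668537) was at 606, 848 and 352.6 CPM in GFPlow pools B, C and D, against 1516, 1792 and 1477 CPM in GFP+ pools A, B and C. Every GFPlow pool was thus below every GFP+ pool. Summed over pools it was at 468 CPM (464 to 472) in GFPlow cells, 1579.9 in GFP+ cells (1572 to 1588) and 106.6 in GFP- cells, a GFPlow to GFP+ ratio of -1.75, or -1.15 in pools B and C. Reads of it were in 63.3% of GFPlow cells (51.7 to 73.9) and 91.8% of GFP+ cells (84.6 to 96.4), with GFP- cells at 10.8%. The median cell had 105.06 CPM in the GFPlow gate and 1336 in the GFP+ gate, with highest cells at 2933 and 4795 CPM. Both gates held cells without a read of Madcam1 and cells above the median of GFP+.

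Igfbp7 (chromosome 5, 77349240 to 77408041) went the other way. It was at 676, 450.1 and 996 CPM in GFPlow pools B, C and D, against 288.02, 251.4 and 265.99 CPM in GFP+ pools A, B and C. No pool of one gate reached into the range of the other. The gates had 863 CPM (857 to 869) in GFPlow cells, 271.7 in GFP+ cells (268.4 to 275.02) and 4814 in GFP- cells, a GFPlow to GFP+ ratio of 1.66, or 1.10 in pools B and C. Reads were in 87.3% of GFPlow cells (78 to 93.8) and 63.3% of GFP+ cells (52.9 to 72.8). The median cell was at 487 CPM in GFPlow and 86.1 CPM in GFP+.

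Cdh5 (chromosome 8, 104101625 to 104144511) was at 249.4, 176.9 and 102.9 CPM in GFPlow pools B, C and D, against 82.5, 82.3 and 51.7 CPM in GFP+ pools A, B and C. The pools again did not overlap, although the ratio over all pools, 0.87, was under 2-fold and that in pools B and C, 1.65, was over it. Pecam1, the CD31 gene used in the sort, was at 947 CPM in GFPlow cells and 622 in GFP+ cells, and its reads were in 89.9% and 89.8% of cells. Ptprc, the CD45 gene, had reads in 1 cell of each gate, at 2.97 CPM in GFPlow and 0.011 in GFP+.

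**Figure D1:**
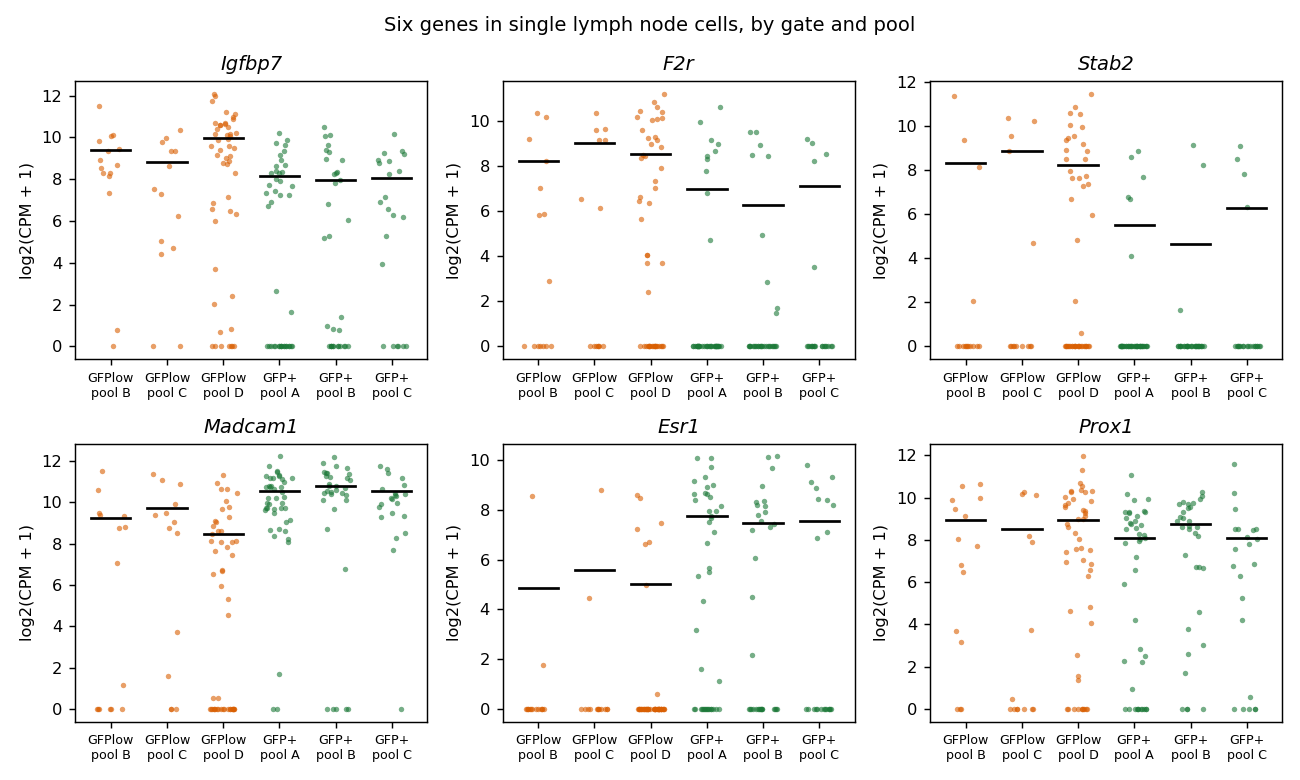
Each point is a cell, placed by gate and pool on the x axis and by log2(CPM + 1) of 1 gene on the y axis (orange, GFPlow; green, GFP+; sideways spread within a column has no meaning), and each black line is the summed level of the pool. For Igfbp7, F2r and Stab2 the GFPlow lines lie above all GFP+ lines, for Madcam1 and Esr1 below them, and for Prox1 the lines of the gates overlap.

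Lymphatic identity was shared by both gates. Prox1 was at 496, 361.1 and 488 CPM in GFPlow pools B, C and D, against 266.96, 428 and 267.06 CPM in GFP+ pools A, B and C. Its pools overlapped, and reads were in 74.7% of GFPlow cells and 79.6% of GFP+ cells. Lyve1, whose product binds hyaluronan, was at 649 CPM in GFPlow cells and 590 in GFP+ cells (ratio 0.14), and Flt4, the gene of the VEGF-C receptor, at 131.1 and 182.8 CPM (-0.48). Of 14 lymphatic genes 12 were measured, which means 1 CPM or more, with reads in 5% or more of the cells, in 1 gate. Of these 11 were not called and 1 was higher, with a median ratio of 0.16 beside 0.07 over all measured genes. At least 3 lymphatic genes had reads in 78 of 79 GFPlow cells, 89 of 98 GFP+ cells and 50 of 74 GFP- cells. The 1 higher gene was Ccl21a, which encodes a chemokine that draws dendritic and T cells. It was at 0, 0 and 4142 CPM in GFPlow pools B, C and D, and 64% of its reads came from 1 cell, against 2 reads in all GFP+ cells.

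The background of calls was wide. Of 10831 genes measured over all pools, 1075 (9.93%) were at least 2-fold higher in GFPlow cells and 1149 (10.6%) at least 2-fold lower, where both the summed reads and the per-cell mean had to pass. In pools B and C, with 29 GFPlow and 55 GFP+ cells, 1661 of 10470 genes (15.9%) were higher and 2290 (21.9%) lower. In pool B alone, with 15 and 33 cells, 2662 of 10660 were higher (25%) and 3279 lower (30.8%). In pool C alone, with 14 and 22 cells, 2471 of 10378 were higher (23.8%) and 2794 lower (26.9%). Counts of list members in this report are to be read beside these shares. Genes that were 2-fold higher with every GFPlow pool above every GFP+ pool made up 1.99% of the measured genes, and those 2-fold lower with every GFPlow pool below every GFP+ pool 3.97% (430 genes). Igfbp7 and Madcam1 were among these. Both shares count only genes called at 2-fold. Cdh5, and Postn, H2-Ab1 and Cd74 below, had pools apart but were not called. How many genes of any ratio have pools apart was not counted, so no weight is put on it for these 4 genes.

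A stricter rule named genes for size. It asked for 20 CPM and reads in 25% of cells in the higher gate, and for a 2-fold distance in the same direction over all pools, in pool B and in pool C. It held 40 genes higher in GFPlow (0.369%) and 49 lower (0.452%), of which the 10 highest and the 10 lowest by ratio are described. They were chosen for their ratios, so these are a description, and their direction in pools B and C follows from the rule. Pool A of the GFP+ gate and pool D of the GFPlow gate did not enter the last condition.

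Stab2 (chromosome 10, 86841198 to 87008025), which encodes a scavenger receptor for hyaluronan, led the higher genes. It was at 467.9 and 302.7 CPM in GFPlow pools C and D, with pool B between them, against 44.3, 24.3 and 77.3 CPM in GFP+ pools A, B and C, and at 515 CPM in GFP- cells. All 3 GFPlow pools were above all 3 GFP+ pools, with a ratio of 2.76. Reads were in 43% of GFPlow cells (31.9 to 54.7) and 13.3% of GFP+ cells (7.26 to 21.6), or 39.7% and 12.6% with each cell thinned to 100000 reads. The median cell of both gates had 0 reads of it, and the highest cells had 2872 CPM in GFPlow and 576 in GFP+.

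F2r (chromosome 13, 95601803 to 95618487), which encodes the thrombin receptor PAR1, had the same order. It was at 298.5, 531 and 370.9 CPM in GFPlow pools B, C and D, against 128.7, 78.1 and 137.8 CPM in GFP+ pools A, B and C, and at 508 CPM in GFP- cells. Its ratio was 1.71, its pools did not overlap, and reads were in 57% of GFPlow cells (45.3 to 68.1) and 24.5% of GFP+ cells (16.4 to 34.2). Nr4a1, an orphan nuclear receptor gene of the immediate early class, was at 671, 290.01 and 258.5 CPM in GFPlow pools B, C and D, against 122.5, 51.4 and 58.5 CPM in GFP+ pools A, B and C. Reads of Nr4a1 were in 29.1% of GFPlow cells and 19.4% of GFP+ cells, and 24.8% of its GFPlow reads came from 1 cell.

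The other higher genes had lower levels and reads in about as few cells. S100a10, the partner of annexin A2 at the plasma membrane, was at 88.2, 3.46 and 62.99 CPM in GFPlow pools B, C and D, against 13.3, 9.69 and 0.037 CPM in GFP+ pools A, B and C, so its pools overlapped. Egln2, a prolyl hydroxylase that acts on hypoxia-inducible factors, was at 88.2, 45.7 and 143.3 CPM in the GFPlow pools, against 36.4, 24.3 and 0 CPM in the GFP+ pools. Golga5 and Ccdc91, both of Golgi transport, had ratios of 2.19 and 2.25. Abcc5, an export pump of organic anions, was at 2.35, Aprt, an enzyme of adenine salvage, at 1.86 and Psmd11, a proteasome subunit, at 1.84. The pools of these 5 genes did not overlap.

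Esr1 (chromosome 10, 4611593 to 5005614), the oestrogen receptor alpha gene, was the lower gene with the widest spread over cells of GFP+. It was at 28, 46.5 and 31.8 CPM in GFPlow pools B, C and D, against 212.4, 176.2 and 184.98 CPM in GFP+ pools A, B and C, and at 7.38 CPM in GFP- cells. Every GFPlow pool was below every GFP+ pool, with a ratio of -2.50. Reads were in 15.2% of GFPlow cells (8.1 to 25) and 54.1% of GFP+ cells (43.7 to 64.2), or 12.8% and 51.6% when thinned.

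Pthlh, which encodes parathyroid hormone-related protein, was at 25.9, 18.2 and 24.4 CPM in GFPlow pools B, C and D, against 71.3, 173.9 and 99.6 CPM in GFP+ pools A, B and C. Reads of Pthlh were in 20.3% of GFPlow cells, 43.9% of GFP+ cells and 4.05% of GFP- cells. Cd53, a tetraspanin gene best known from leukocytes, was at 23.7, 50.5 and 10.5 CPM in the GFPlow pools, against 116.9, 100.3 and 102.5 CPM in the GFP+ pools. Its reads were in 11.4% of GFPlow cells and 28.6% of GFP+ cells, while Ptprc was near 0 in both. Ly6i, of the Ly6 family of small surface proteins, was at 90.7, 67.1 and 38.03 CPM in the GFPlow pools, against 238.9, 321.7 and 174.9 CPM in the GFP+ pools, and reads of close family members can be shared between copies.

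The remaining lower genes were Rnf11, a RING-finger protein gene (-3.12), Itm2a, a membrane protein gene (-3.02), and Tbc1d9b, with a Rab GAP domain (-2.99). Kdm4c, a histone demethylase gene, was at -2.82, Cnn2, the actin-binding calponin 2, at -2.20 and Hnrnpul1, an RNA-binding protein gene, at -2.12. Cnn2 was at 0, 0 and 29.1 CPM in GFPlow pools B, C and D, against 142.2, 98.5 and 25.7 CPM in GFP+ pools A, B and C, so its pools overlapped, and those of the other 5 did not. Itm2a was highest outside both gates, at 454 CPM in GFP- cells beside 14.8 CPM in GFPlow and 127.7 in GFP+ cells.

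**Figure D2:**
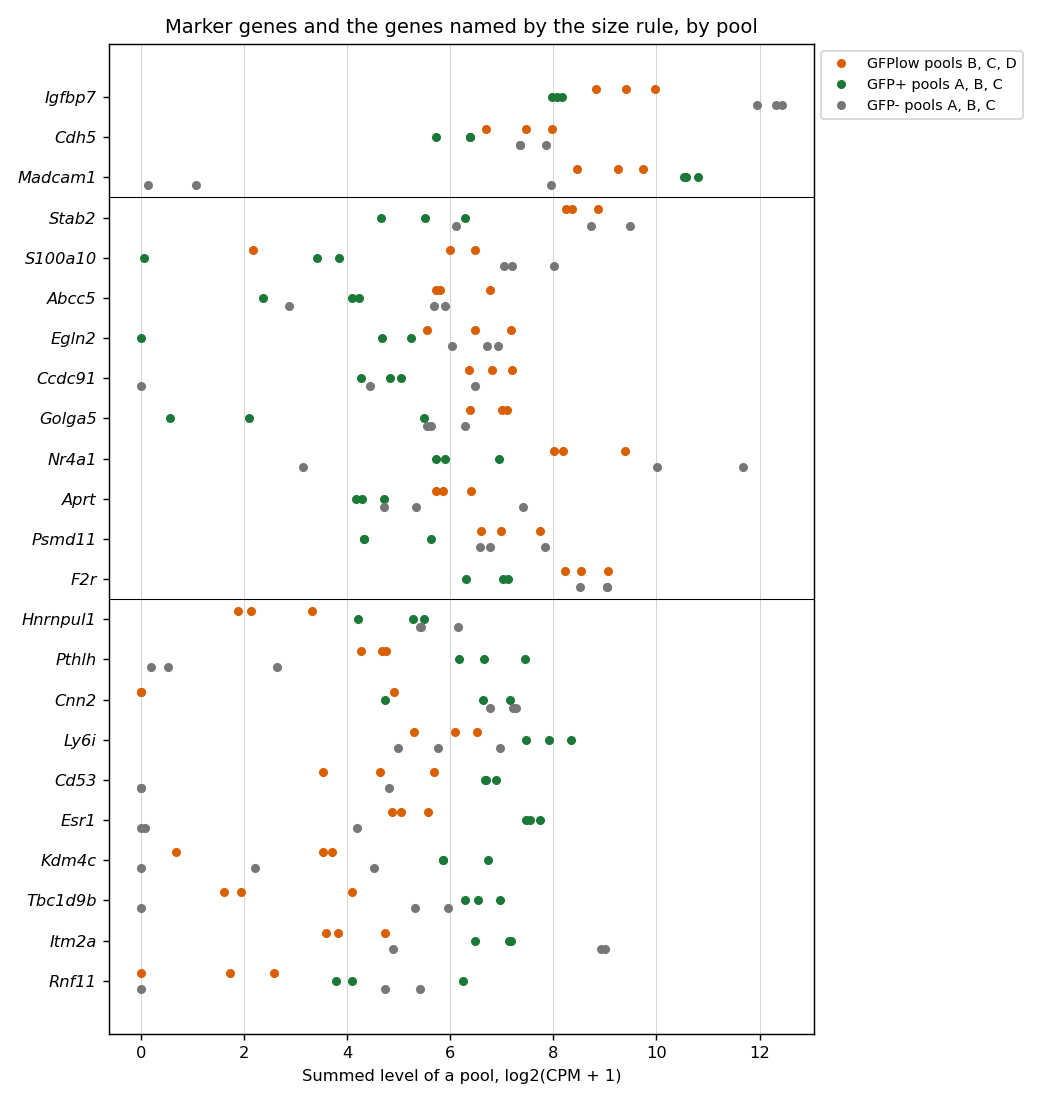
Each row is a gene and each point the summed level of 1 pool as log2(CPM + 1) on the x axis, with GFPlow pools (orange, upper line of a row), GFP+ pools (green) and GFP- pools (grey); lines separate the markers, the 10 higher and the 10 lower genes. The GFPlow and GFP+ points are apart in all rows except S100a10 and Cnn2.

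Sinus floor genes were lower in part. Of 7 measured genes Madcam1 and Ccl20 were at least 2-fold lower and 5 were not called, with a median of -0.61, or -0.44 in pools B and C. Ccl20, a chemokine gene, was at 509, 343.6 and 151.3 CPM in GFPlow pools B, C and D, against 186.9, 1141 and 568 CPM in GFP+ pools A, B and C, with overlap. Coch, the gene of the matrix protein cochlin, was at 1429.9 CPM in GFPlow cells and 2520.5 in GFP+ cells, and 44.3% and 66.3% of cells had its reads. Glycam1, a mucin-like ligand of L-selectin, was at 1750.2 and 2674 CPM, Itga2b, the integrin alpha IIb gene, at 468 and 617, Bmp2 at 538 and 645, and Csf1, the ligand gene of the CSF1 receptor, at 668 and 703. At least 3 of these genes had reads in 71 of 79 GFPlow cells, 98 of 98 GFP+ cells and 7 of 74 GFP- cells. The summed level of the list was 5555 CPM in GFPlow, 9297 in GFP+ and 3378 in GFP- cells.

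Genes placed on the sinus ceiling were higher, but from few cells. Of 7 measured genes 5 were at least 2-fold higher and none lower, with a median of 1.29. In pools B and C 2 of 4 measured genes were higher (median 1.64), with 4 of 6 in pool B and 0 of 3 in pool C. Of all measured genes 15.9% were higher in pools B and C, 25% in pool B and 23.8% in pool C. Ackr4 was at 64.1, 0 and 107.02 CPM in GFPlow pools B, C and D, against 0, 0 and 0.037 CPM in GFP+ pools A, B and C, and 71.5% of its GFPlow reads came from 1 cell. Flrt2, a guidance receptor ligand gene, was at 168.2, 0 and 104.3 CPM in the GFPlow pools, against 26.9, 2.04 and 0.513 CPM in the GFP+ pools. Cav1, the main protein of caveolae, was at 140.98 and 61.5 CPM over all pools, and Anxa2, annexin A2, at 152.4 and 67.8. At least 3 ceiling genes had reads in 14 of 79 GFPlow cells, 12 of 98 GFP+ cells and 55 of 74 GFP- cells.

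Genes of medullary and cortical sinuses did not move together. Of 6 measured genes Stab2, Cd36 and Marco were higher, Kcnj8 was lower and 2 were not called. Marco, a macrophage-type scavenger receptor also found on medullary sinus endothelium, had reads in 4 GFPlow and 3 GFP+ cells. Cd36, a fatty acid transporter gene, had 60.6% of its GFPlow reads in 1 cell. Clec4g, a lectin gene of sinus endothelium, was at 277.4 CPM in GFPlow cells and 330.8 in GFP+ cells, while GFP- cells had 0 reads of it. Kcnj8, a potassium channel subunit gene, was at 0, 13.7 and 0 CPM in GFPlow pools B, C and D, against 64.2, 134.02 and 13.8 CPM in GFP+ pools A, B and C. Reads of Kcnj8 were in 1 of 79 GFPlow cells, against 19.4% of GFP+ cells.

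Madcam1 and Stab2 were read together in part of the cells, a pairing chosen after their values were seen. Among GFPlow cells 33 of 79 had reads of Madcam1 alone (41.8%, 30.8 to 53.4), 17 of both, 17 of Stab2 alone (21.5%, 13.1 to 32.2) and 12 of neither. Among GFP+ cells 79 of 98 had Madcam1 alone (80.6%, 71.4 to 87.9), 11 both, 2 Stab2 alone (2.04%, 0.248 to 7.18) and 6 neither. Among 74 GFP- cells 4 had Madcam1 alone, 4 both, 19 Stab2 alone and 47 neither. Cells with Stab2 alone made up 20%, 14.3% and 24% of GFPlow pools B, C and D, against 0%, 6.06% and 0% of GFP+ pools A, B and C. With cells thinned to 100000 reads the shares with Stab2 alone were 21.8% of GFPlow cells and 1.05% of GFP+ cells.

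**Figure D3:**
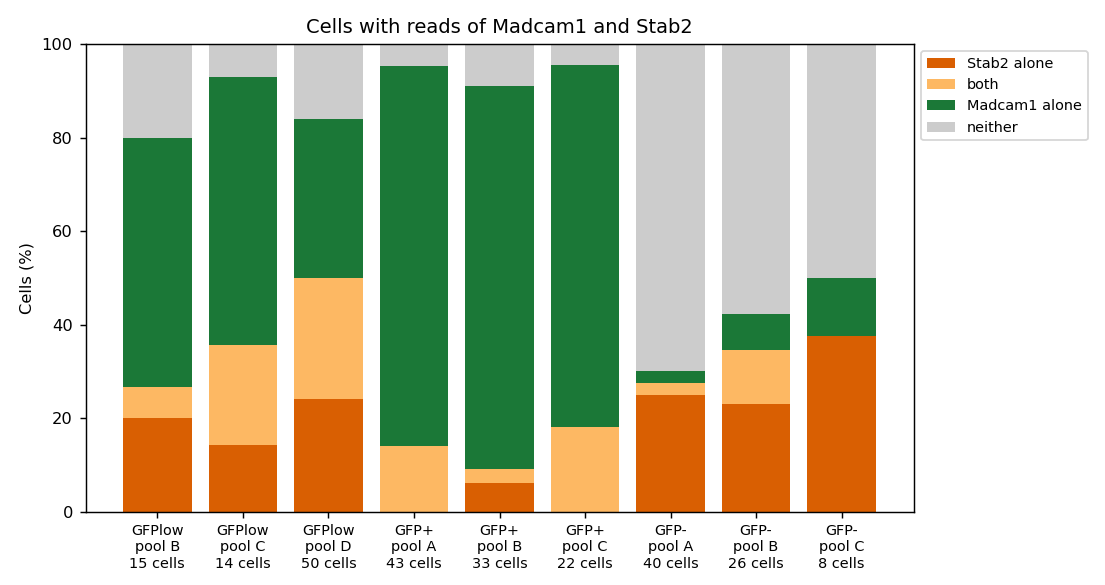
Bars show the percentage of cells of a gate and pool with reads of Stab2 alone, both genes, Madcam1 alone or neither, with the number of cells under each bar. Madcam1 alone is the main class in the 3 GFP+ pools (77.3% to 81.8%), and Stab2 alone has 14.3% to 24% of cells in the GFPlow pools.

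Cells with a Madcam1 read, 50 of GFPlow and 90 of GFP+, were compared separately. List medians moved both ways among them. Some were smaller: 0.21 for sinus ceiling genes (1.29 over all cells), 0.19 for caveolar genes (1.06), 0.08 for medullary and cortical sinus genes (1.46) and 0.55 for capillary genes (4.57). Others lay further from 0: -2.46 for haematopoietic genes (-1.60), -1.25 for MHC class II (-1.06), -0.67 for interferon response (-0.21) and 0.33 for lymphatic genes (0.16). Those of caveolar, medullary and cortical sinus, interferon response and lymphatic genes stayed within the intervals of the medians over all cells. That of sinus ceiling genes did not (0.28 to 6.39). The haematopoietic, MHC class II and capillary lists had too few measured genes for an interval. The haematopoietic list had 2 measured genes over all cells, among them Cd53, which the size rule had named for its ratio. Single genes named above still lay apart, some of them chosen for their ratio over all cells. Igfbp7 was at 639 CPM in GFPlow and 254.9 in GFP+, F2r at 298.5 and 114.3, and Stab2 at 211.99 and 47.1. Esr1 was at 42.3 CPM in GFPlow and 199.3 in GFP+, and Postn, the matrix protein periostin, at 1659.9 and 2702. Over all cells Postn was at 2198, 1922 and 1115 CPM in GFPlow pools B, C and D, against 2530.1, 2922 and 2715 CPM in GFP+ pools A, B and C, under 2-fold in ratio (-0.95) but without overlap of pools.

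The blood endothelial genes named here were lower in both gates than in GFP- cells. Of 10 measured genes 5 were higher and 1 was lower, and the median of the list was 1.55, or 2.09 with genes at 0 reads set at 3 reads, but the median was -0.20 in pools B and C. Cd34, a sialomucin of vessels, was at 0.075, 0 and 195.8 CPM in GFPlow pools B, C and D, against 0, 2.31 and 0.037 CPM in GFP+ pools A, B and C, and 77% of its GFPlow reads came from 1 cell. Flt1, a VEGF receptor gene, was at 0, 0 and 26.6 CPM in the GFPlow pools, against 3.3, 23.9 and 3.19 CPM in the GFP+ pools. In GFP- cells Cd34 was at 1098 CPM and Flt1 at 625. Ly6c1 had 0.011 CPM in GFPlow, 0 in GFP+ and 989.5 CPM in GFP- cells. Ptprb, the vascular phosphatase VE-PTP, was more even over cells, at 126.95, 72.6 and 137.2 CPM in the GFPlow pools, against 57.6, 60.9 and 38.7 CPM in the GFP+ pools, with reads in 51.9% and 31.6% of cells. Its ratio by summed reads was 1.23, and it was not called because the mean of per-cell CPM gave less than 2-fold.

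Reads of Prox1 without any of Cd34, Flt1 or Ly6c1 were found in 51 of 79 GFPlow cells, 68 of 98 GFP+ cells and 12 of 74 GFP- cells. The reverse, a read of Cd34, Flt1 or Ly6c1 without Prox1, was found in 4 GFPlow, 1 GFP+ and 44 GFP- cells. All 4 of the higher capillary genes (Cd36, Fabp4, Fabp5 and Aqp1) were at or near 0 CPM in GFPlow pool C, and at least 3 capillary genes had reads in 1 GFPlow, 0 GFP+ and 33 GFP- cells. Caveolar genes had 4 of 8 higher, among them Ptrf, the cavin-1 gene, at 95.2 CPM in GFPlow and 12.1 in GFP+ cells. In pools B and C 0 of 8 were higher and 2 were lower, where 21.9% of all measured genes were lower. Pan-endothelial genes had 3 of 14 higher and 1 lower, with a median of 0.61, or -0.04 in pools B and C. Kdr, the main VEGF receptor gene, was at 728 CPM in GFPlow and 479 in GFP+ cells, and Plvap, the gene of the fenestral diaphragm protein, at 1924 and 2249. Endothelial junction genes had 2 of 13 higher (Esam and Jup) and matrix and basement membrane genes 0 of 15 in either direction. Over all measured genes 9.93% were higher and 10.6% lower.

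MHC class II genes were lower in part. These encode the proteins that show peptides to CD4 T cells. Of 5 measured genes H2-Eb1 and H2-Aa were at least 2-fold lower by both measures and 3 were not called, with a median of -1.06, or -0.72 in pools B and C. H2-Ab1 was at 140.6, 252.8 and 135.6 CPM in GFPlow pools B, C and D, against 313.5, 336.3 and 327.2 CPM in GFP+ pools A, B and C, without overlap. Its ratio was -1.06 on summed reads but -0.69 on per-cell means, so it was not called. Cd74, the invariant chain gene, was at 1518, 1301 and 1189 CPM in the GFPlow pools, against 2565, 2253 and 1577 CPM in the GFP+ pools, again without overlap and within 2-fold. At least 3 class II genes had reads in 11 of 79 GFPlow cells, 29 of 98 GFP+ cells and 23 of 74 GFP- cells. MHC class I genes had 0 of 10 apart, with a median of 0.05, and H2-K1 was at 8730.2 CPM in GFPlow and 8320.1 in GFP+ cells. Interferon response genes had 2 of 11 lower and 0 higher (median -0.21), beside 10.6% lower and 9.93% higher over all measured genes.

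Genes that dissociation of tissue is known to raise were compared as a list. Of 15 immediate early and heat shock genes 2 were higher and 1 was lower, and the median was -0.05. In pools B and C 3 were higher and 1 lower, with a median of 0.44, and the medians were 0.20 in pool B and 0.93 in pool C. Fosb was at 191.6, 159.9 and 82.1 CPM in GFPlow pools B, C and D, against 47, 23.7 and 53.9 CPM in GFP+ pools A, B and C. Klf4, which encodes a zinc-finger transcription factor, was at 51.5 CPM in GFPlow and 9.41 in GFP+ cells. Hspa1a, a heat shock protein gene, ranged within each gate from 0 to 774 CPM over the GFPlow pools and from 40.8 to 2345 CPM over the GFP+ pools. Zeb2, known from mesenchymal transition, was at 23.2, 35.3 and 64.5 CPM in the GFPlow pools, against 118.99, 123.6 and 158.1 CPM in the GFP+ pools, and was the 1 of 6 measured genes of its list that was called.

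**Figure D4:**
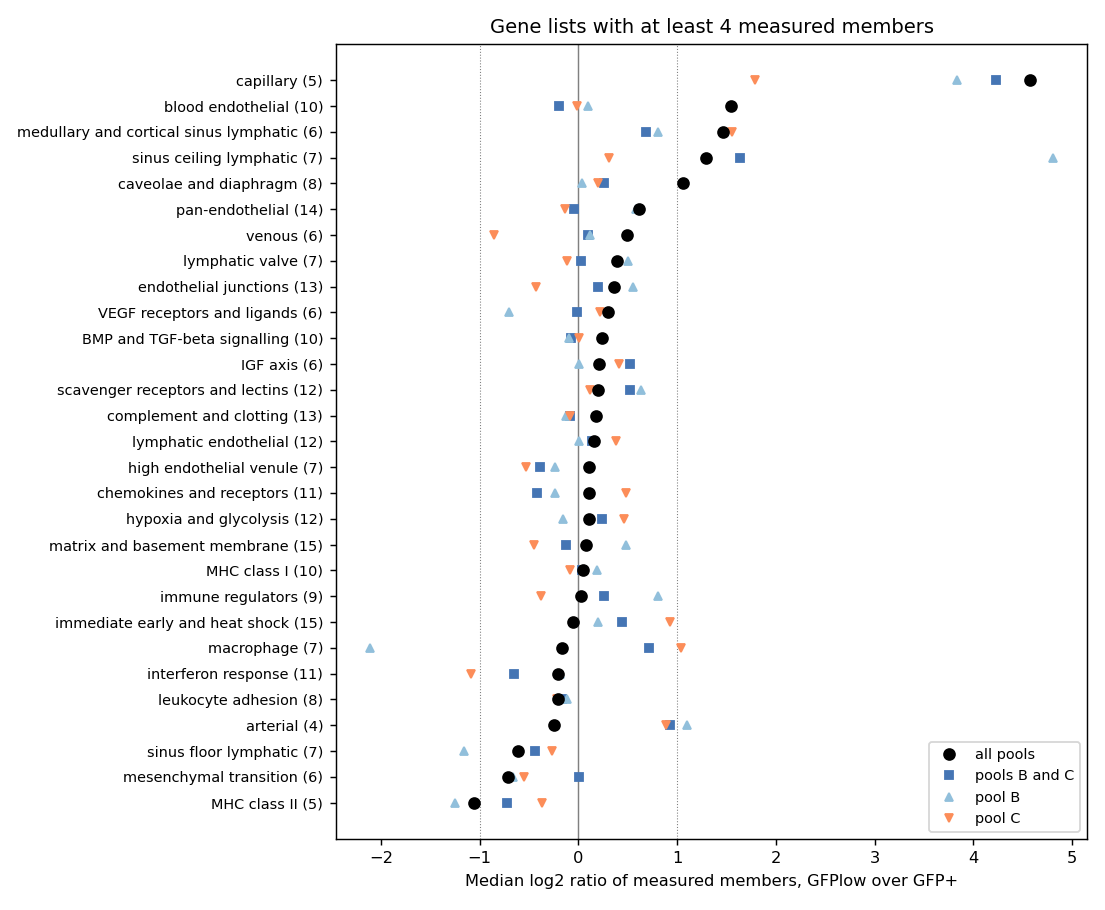
Each row is a gene list with the number of members measured over all pools, and points give the median log2 ratio of its members, GFPlow over GFP+ (black circle, all pools; square, pools B and C; triangles, each pool alone; dotted lines, 2-fold). Sinus floor, MHC class II, interferon response and leukocyte adhesion medians are below 0 in every set of pools shown. These sets share cells, and without pool A, which is not shown, the interferon response median was 0.05. Some other lists stay above 0, and many change side, among them blood endothelial, pan-endothelial and macrophage genes.

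The remaining lists had small counts, beside 9.93% of all measured genes higher and 10.6% lower. The IGF axis had Insr, the insulin receptor gene, and Igfbp7 higher of 6 measured, with a median of 0.21. Lymphatic valve genes had 1 of 7 higher, Foxc2, at 33.1 CPM in GFPlow and 6.22 in GFP+ cells, while Cldn11, a claudin gene of valves, was at 408 and 260.8 CPM. Of 7 genes of high endothelial venules 2 were higher, and Enpp2, the autotaxin gene, was at 637, 561 and 677 CPM in the GFPlow pools, against 797, 1488 and 722 CPM in the GFP+ pools. Leukocyte adhesion genes had 1 higher and 1 lower of 8, immune regulators 0 of 9, scavenger receptors and lectins 4 of 12 higher, and complement and clotting genes 2 higher and 1 lower of 13. C3, the central complement gene, was at 1739 CPM in GFPlow and 2502 in GFP+ cells. Vcam1 was at 1206 and 1413 CPM and Icam1 at 424 and 557.

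Few cells of either gate had reads of 3 or more markers of a cell type outside the endothelium, while single markers such as Ctss were read in more cells. Lists of other endothelium met the same cut more often. At least 3 high endothelial venule genes were read in 59 of 79 GFPlow, 89 of 98 GFP+ and 39 of 74 GFP- cells. At least 3 blood endothelial genes were read in 37 GFPlow, 34 GFP+ and 70 GFP- cells. At least 3 haematopoietic, B cell, T cell or plasma cell genes were read in 0 cells of either gate. Only 2 members of each of these lists were measured, so the cut of 3 genes could hardly be met. Of 8 haematopoietic genes 4 had 0 reads in all GFPlow cells and 1 in all GFP+ cells, with summed levels of 31.8 and 149.7 CPM. At least 3 dendritic cell genes were read in 4 GFPlow and 6 GFP+ cells (summed level 413 and 374.8 CPM), and at least 3 platelet genes in 2 and 1 (512 and 670 CPM). Of 16 macrophage genes 7 were measured, with 1 higher and 1 lower, and at least 3 had reads in 7 of 79 GFPlow cells and 16 of 98 GFP+ cells, or 6.41% and 6.32% when thinned. Their summed level was 170.6, 628 and 331.1 CPM in GFPlow pools B, C and D, against 766, 519 and 388 CPM in GFP+ pools A, B and C. Most of that was Ctss, the cathepsin S gene, at 274.7 CPM in GFPlow and 455 in GFP+ cells, and 38% and 70.4% of cells had its reads. Lyz2, which encodes myeloid lysozyme, was at 3.32 CPM in GFPlow and 63.8 in GFP+ cells, and 81.3% of the GFP+ reads came from 1 cell. Csf1r, for which the labels name the lineage, was at 5.4 CPM (4.95 to 5.89) in GFPlow cells and 3.48 in GFP+ cells (3.12 to 3.88), with reads in 13.9% and 39.8% of cells. Its level and its share of cells thus ran in opposite directions, and no order is read from them.

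GFPlow pool D stood apart in a few genes of other places. Krt14, a keratin gene of epithelium, was at 0.075, 0 and 133.8 CPM in GFPlow pools B, C and D, against 4 reads in all GFP+ cells. Its reads were in 29 of the 50 cells of pool D, 19 of them with at least 10 CPM, while the other 5 epithelial genes had 0 reads. Cd34 and Ccl21a were also high in pool D alone, but, as given above, most of the GFPlow reads of each came from 1 cell. The part of these reads in other values of pool D was not tested, and levels given as 1 sum per gate include pool D. Without pool D the ratio of Igfbp7 was 1.03, beside 1.66 with it, and that of Madcam1 -1.10, beside -1.75.

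Over the 84 GFPlow and GFP+ cells of pools B and C, the genes whose level followed a marker most closely were listed among 3116 genes with reads in at least 25% of these cells. The cells share pools, differ in depth and come from gates whose levels of these markers differ, so the rank correlations are descriptions, given also within the 29 GFPlow and the 55 GFP+ cells. Madcam1 was most like Clu, the clusterin gene (Spearman's rho 0.53, with 0.56 within GFPlow and 0.44 within GFP+), Trf, transferrin (0.52, with 0.48 and 0.44), and Cd74 (0.48, with 0.42 and 0.41). Igfbp7 was most like F2r (0.54, with 0.44 within GFPlow and 0.51 within GFP+), Timp4, a metalloproteinase inhibitor gene (0.48, with 0.54 and 0.44), and Crip1 (0.44, with 0.46 and 0.34). Cdh5 had weaker partners, Atp5l (0.41, with 0.41 and 0.34) and Fmo1 (0.40, with 0.38 and 0.42). Of these Clu was at 17286, 15908 and 18753 CPM in GFPlow pools B, C and D, against 26776, 24128 and 22491 CPM in GFP+ pools A, B and C, and Timp4 at 407, 156.7 and 598 CPM, against 174.2, 155.8 and 86.4 CPM.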

How the data were processed

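Single cells were sorted into plates and amplified by a modified SMART-seq2 protocol with 20 cycles of cDNA amplification, per the labels' protocols. Reads carry no molecular identifiers, so copies made by amplification cannot be told apart, and intervals on CPM cover the counting of reads, not of transcripts. The deposited table holds counts that the authors made per gene, not normalised. The submitters' processing notes name Subread 1.4.6-p2, STAR 2.4.1b, FastQC 0.11.4 and the mm10 build, with no settings. Strand use in counting is not given in the sources used here.

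Rows sharing a symbol were summed (51734 symbols from 51826 rows). CPM, exact Poisson and Clopper-Pearson intervals were computed with Python 3.11.15, pandas 2.3.3 and scipy 1.17.1. Normalisation factors for an alternative came from edgeR 4.0.16, and no model was fitted. A gene was called at 2-fold by summed reads and by mean per-cell CPM, with a pseudocount of 1 CPM. The procedure was run on simulated cells with changes wider than 2-fold, planted in genes of 20 CPM or more and without pools. That run does not cover calls near 2-fold, on lower genes or within a pool. Sorted single cells were not screened for doublets. Named genes were those of the size rule given in the report, the markers, and up to 4 members per list with the largest ratio at 20 CPM or more. Coordinates are GENCODE vM21 on GRCm38. The members, the 40 lists (366 genes) and the alternatives were chosen with earlier results of these data known.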

Additional observations from a re-analysis of the deposited data

Results flagged for a closer look

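Some values went one way in pool B and the other in pool C, the pools that hold both gates, and these differences were not tested. The ratios rest on 15 GFPlow and 33 GFP+ cells in pool B and on 14 and 22 cells in pool C. The median of the macrophage list was -2.11 in pool B and 1.04 in pool C. Esam, an endothelial adhesion gene, stood at 6.51 (pool B) and -2.76 (pool C) in log2 ratio, with reads in 2 and 0 GFPlow cells of these pools. Jup, the junction protein plakoglobin, was at 3.37 and -2.62, and Gcnt1, a glycosyltransferase gene of high endothelial venules, at 6.60 and -3.13. Ltbp4, a TGF-beta binding protein gene, was at 2.87 in pool B and -5.37 in pool C, and Adm, the adrenomedullin gene, at 1.28 and -5.71. Among genes of blood cells Lck was at 2.03 and -3.65, Clec9a at 2.07 and -1.26, and Zbtb46 at -1.68 and 2.35.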

How the results depend on the processing

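The 20 genes of the size rule kept their direction and a 2-fold distance under all 16 settings that gave them a value. This was largely fixed in advance. The rule had asked for 2-fold by both measures over all pools and for 2-fold in pools B and C, the genes had the widest ratios, and the settings reuse the same cells. Igfbp7 ranged from 1.03 to 1.78, Madcam1 from -2.03 to -1.10, Stab2 from 2.15 to 3.08 and Esr1 from -2.77 to -2.10. Cdh5 was at least 2-fold apart in 4 of 16 settings (0.62 to 1.65). The share of measured genes called over all pools depended on the filter. In place of 9.93% higher and 10.6% lower (1075 and 1149 genes), a pseudocount of 5 CPM gave 5.95% and 6.6% (644 and 715 genes), a minimum of 5 CPM with reads in 20% of cells 3.88% and 4.31% of 4825 genes, and no filter 9.6% and 10.6% (1937 and 2135 of 20174 genes). Without pool D 22.9% were lower (2448 genes), and in pools B and C alone 15.9% were higher and 21.9% lower. Within pools B and C, the stricter gene filter gave 11.7% higher and 11.5% lower (574 and 564 genes), pool B alone 25% higher (2662) and no filter 20.4% lower (3492). Directions turned for the blood endothelial median (-0.20) and Cd34 (-1.05) in pools B and C, the capillary median (-1.01 with the stricter gene filter), Robo4 (-3.25 without pool D) and Ehd2 (-2.30 without pool D, -2.37 in pools B and C). Among cells with a Madcam1 read, a setting chosen after seeing the data, Ehd2 was at -0.87 and Ltbp4 at -0.57. The cause was not tested. Of the values not called over all pools, Flt1 (0.99) was at -3.31 without pool D and -3.84 in pools B and C, Csf1r (0.51) at -0.60 by the mean of cells, Igf2r (-0.62) at 0.95 in pools B and C, and the arterial median (-0.25) at 0.93 there. In all, 40 genes and 24 list medians changed sign under at least 1 setting. Apart from the shares of called genes, 2422 values moved by less than 1.5-fold or stayed within the interval of the list median, where it had one. Some of these also changed sign, and the rest of the values moved further. The median ratio of all genes ran from -0.08 without pool D to 0.14 without pool A. No paired analysis was possible because the results come from no test. Ratios within pool B and within pool C, which hold both gates, are given instead.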
